A study of Mus musculus with 15 samples.

Results

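Expression of 50 genes of the cell division cycle was examined in monocytes and in 3 subsets of small intestinal macrophages. The genes were a listed set of 23 genes of DNA replication and 27 genes of mitosis, matched by symbol under a rule that used no expression threshold, and were read as 2 separate groups. All 50 were among the 19456 genes counted, and all 50 passed the filter on low counts that left 15802 genes for testing. RNA was sequenced in 15 libraries from adult male wild-type C57BL/6 mice. Ly6Chi monocytes (3 libraries) were sorted from peripheral blood, and macrophages (4 libraries for each subset) were sorted from the small intestine on surface Tim-4, a receptor for apoptotic cells, and CD4, a coreceptor better known from T cells. Macrophages with neither marker (Tim-4-CD4-) are called double-negative here, those with CD4 alone (Tim-4-CD4+) single-positive, and those with both (Tim-4+CD4+) double-positive. Every library held cells pooled from 3 mice, except monocyte replicate 2, which held cells of 4, so that no library describes a single animal. The study describes the replicates of each population as independent sorts. The macrophage sort kept CD64+ MHCII+ cells and removed cells stained for TCRβ, B220, Siglec F, Ly6G or Ly6C. No group received a treatment. The study asked whether the intestinal subsets differ in how they are maintained. In RNA from bulk cells, fewer cycling cells and less of each transcript per cycling cell cannot be told apart.

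A dividing cell first licenses its replication origins by loading the Mcm2 to Mcm7 helicase, which Cdc6 and Cdt1 bring to DNA, and then starts synthesis when cyclin E kinases, Cdc45 and the GINS complex activate that helicase. Transcripts of these factors and of the nucleotide-making enzymes are known to rise at the border of G1 and S phase under the E2F transcription factors. Transcripts of the mitotic apparatus, such as cyclin B, Cdk1, Plk1, the Aurora kinases and the mitotic kinesins, are known to peak later, in G2 and mitosis, under complexes that read CHR and CCAAT elements in promoters. Resident macrophages of many tissues can divide in place, whereas circulating monocytes divide little.

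The promoters of the members were read for these elements. Genes of these 2 kinds are known targets of the factors that read them, so the motif shares are no independent check of the grouping. Windows of 250 bases before to 50 bases after the gene start (RefSeq sequence, GRCm38.p6) were matched by symbol for 42 of the 50 members, 19 of replication and 23 of mitosis. The motifs were E2F (TTTCCCGC, TTTGGCGC, TTTCGCGC or TTTGCCGC), CHR (TTTGAA or TTCGAA) and the CCAAT box (CCAAT), each read on both strands. The windows shown are those of the 5 members that passed the threshold in at least 2 of the 3 comparisons between macrophage subsets, with motif matches in capitals. Matches to different E2F forms may overlap, as in Mcm5.
Mcm5 (chr8:75109259-75109558, strand +): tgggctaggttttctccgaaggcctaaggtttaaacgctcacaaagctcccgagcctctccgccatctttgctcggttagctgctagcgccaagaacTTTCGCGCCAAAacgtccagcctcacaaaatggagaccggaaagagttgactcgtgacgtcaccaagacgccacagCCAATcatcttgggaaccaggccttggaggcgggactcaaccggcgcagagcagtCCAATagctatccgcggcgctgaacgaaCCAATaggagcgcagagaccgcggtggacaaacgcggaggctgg
Rrm2 (chr12:24708004-24708303, strand +): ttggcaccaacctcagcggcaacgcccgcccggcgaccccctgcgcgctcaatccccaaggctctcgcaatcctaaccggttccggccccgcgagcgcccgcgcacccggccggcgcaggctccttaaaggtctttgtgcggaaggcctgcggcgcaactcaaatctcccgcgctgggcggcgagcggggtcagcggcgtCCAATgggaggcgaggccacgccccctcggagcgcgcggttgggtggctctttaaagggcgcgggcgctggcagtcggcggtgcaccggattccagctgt
Top2a (chr11:99024140-99024439, strand -): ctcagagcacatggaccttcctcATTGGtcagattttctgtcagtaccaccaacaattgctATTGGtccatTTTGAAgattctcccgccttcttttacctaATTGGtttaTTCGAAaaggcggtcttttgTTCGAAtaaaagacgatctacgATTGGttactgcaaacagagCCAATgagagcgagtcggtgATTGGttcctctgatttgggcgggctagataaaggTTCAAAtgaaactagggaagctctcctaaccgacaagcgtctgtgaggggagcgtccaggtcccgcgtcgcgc
Bub1 (chr2:127831810-127832109, strand -): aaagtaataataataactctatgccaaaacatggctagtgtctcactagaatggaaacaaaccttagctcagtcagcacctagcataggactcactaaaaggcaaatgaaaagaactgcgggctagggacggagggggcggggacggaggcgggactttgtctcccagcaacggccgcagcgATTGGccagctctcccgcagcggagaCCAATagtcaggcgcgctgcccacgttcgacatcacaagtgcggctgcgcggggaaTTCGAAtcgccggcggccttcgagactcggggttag
Kif11 (chr19:37376132-37376431, strand +): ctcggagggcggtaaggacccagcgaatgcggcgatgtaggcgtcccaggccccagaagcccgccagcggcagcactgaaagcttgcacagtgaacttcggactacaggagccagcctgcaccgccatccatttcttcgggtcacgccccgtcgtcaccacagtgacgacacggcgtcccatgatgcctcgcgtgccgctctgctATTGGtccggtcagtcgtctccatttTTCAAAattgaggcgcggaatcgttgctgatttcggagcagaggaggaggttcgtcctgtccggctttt

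An E2F motif stood in 8 of 19 replication windows (42.1%) and in 1 of 23 mitosis windows (4.35%), against 4.53% of the windows of all 11141 tested genes that had one. A CHR motif stood in 4 replication windows (21.1%) and in 18 mitosis windows (78.3%), against 16.7% of tested genes. The CCAAT box was frequent everywhere, in 63.2% of replication windows, 82.6% of mitosis windows and 42.4% of those of tested genes. CHR and CCAAT together were found in 73.9% of mitosis windows, 15.8% of replication windows and 8.04% of those of tested genes. Top2a, Bub1 and Kif11 carried CHR and CCAAT matches, Mcm5 carried E2F and CCAAT matches, and Rrm2 carried a CCAAT match alone. A match is a description of these letters, and no factor binding was measured.

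**Figure D1:**
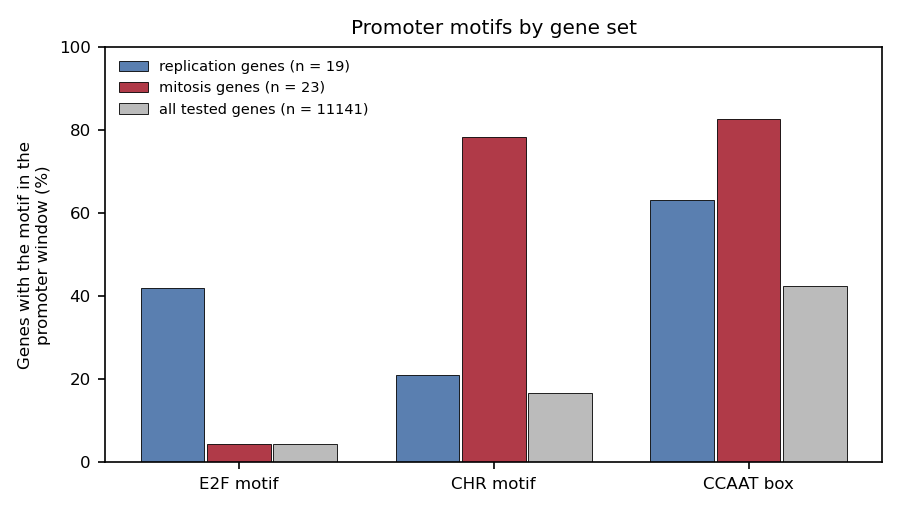
Percentage of genes (vertical axis) with each promoter motif (horizontal axis) among 19 replication genes, 23 mitosis genes and 11141 tested genes. The E2F bar is highest for replication genes (42.1%) and the CHR bar is highest for mitosis genes (78.3%).

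Libraries held between 39388763 and 151510641 counts (median 63249039). Values are given as counts per 1000000 (CPM) of the library size scaled by TMM, a method that corrects for the makeup of each library. Differences come from edgeR's quasi-likelihood test in 1 fit over the 15 libraries, as log2 fold changes with standard errors (SE), and a gene is said to be called where its Benjamini-Hochberg adjusted p was under 0.05. Macrophage markers (6 genes, such as C1qa and Mertk) summed to 10006 to 13934 CPM in macrophages and to 3305 to 3495 CPM in monocytes, and the 4 monocyte markers, such as Ly6c2, to 4360 to 6179 CPM in monocytes. In macrophages the sum of the monocyte markers was 515 to 764 CPM in double-negative, 67.8 to 122 CPM in single-positive and 7.86 to 18.7 CPM in double-positive libraries, most of it Ccr2.

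Both groups of genes were lowest in monocytes and highest in double-negative macrophages. The 23 replication genes summed to 234, 210 and 204 CPM in the 3 monocyte libraries and to 562, 595, 650 and 663 CPM in the 4 double-negative libraries. They summed to 514, 566, 554 and 483 CPM in single-positive and to 435, 437, 496 and 453 CPM in double-positive libraries. Each macrophage library thus exceeded every monocyte library, and the double-negative libraries overlapped in part with single-positive libraries but not with double-positive libraries.

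The 27 mitosis genes summed to 51.0, 71.4 and 49.5 CPM in monocytes. In macrophages they summed to 388, 412, 410 and 507 CPM in double-negative, to 284, 410, 322 and 316 CPM in single-positive, and to 185, 191, 292 and 243 CPM in double-positive libraries. The order of the populations was that of the replication genes, with a wider range. Means over libraries fell from double-negative through single-positive to double-positive macrophages for 20 of the 23 replication genes and for 26 of the 27 mitosis genes.

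**Figure D2:**
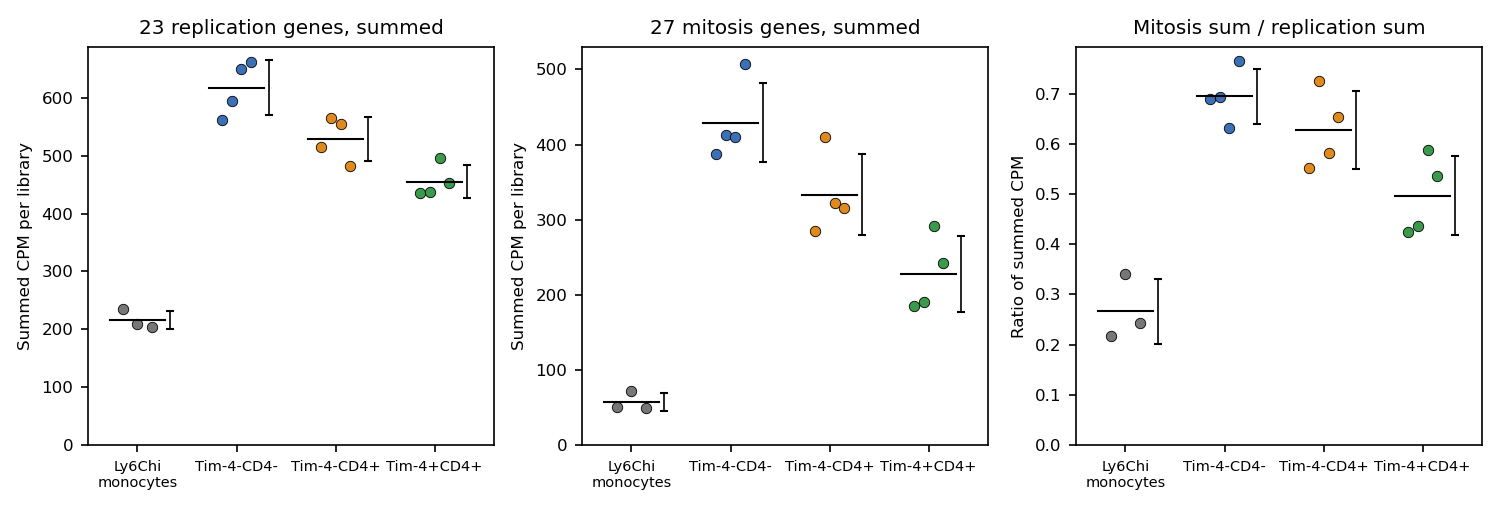
Summed CPM of the 23 replication genes (left) and the 27 mitosis genes (middle) and the ratio of the sums (right) in each library, by population. Points are libraries, lines are means and bars are SD (n = 3 monocyte and 4 libraries per macrophage subset); mitosis sums run from 49.5 CPM in a monocyte library to 507 CPM in a double-negative library.

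Levels differed widely between members. Per kilobase of exon (RPKM), the median replication gene stood at 0.763 in monocytes and at 4.41, 3.57 and 2.50 in double-negative, single-positive and double-positive macrophages, and the median mitosis gene at 0.158, 2.57, 2.09 and 1.36 in the same order. Pcna, the sliding clamp of the replication fork, had the highest RPKM of the replication genes in each population, from 23.4 in monocytes to 40.5 in double-negative macrophages. Mki67, the gene of the proliferation antigen Ki-67, was the highest mitosis gene in each macrophage subset, with 8.22 RPKM in double-negative and 4.53 RPKM in double-positive macrophages. Aurkb led in monocytes with 3.21 RPKM. In monocytes 14 of the 27 mitosis genes, but 4 of the 23 replication genes, stayed under 1 CPM in all libraries.

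Against Ly6Chi monocytes, replication genes were higher in all 3 macrophage subsets. In double-negative macrophages 22 of 23 were called higher, where 37.3% of all tested genes were called higher, and their median log2 fold change was 2.03, against 0.08 over all tested genes. In single-positive macrophages 22 were called higher and 1 lower (39.1% and 30.7% of all tested genes; median 1.85 against 0.11), and in double-positive macrophages 21 were called higher and 1 lower (39.5% and 31.3%; median 1.63 against 0.10). The 3 comparisons share the monocyte libraries. The gene called lower was Cdt1 in both CD4+ subsets, and each of these calls was lost under at least 1 alternative.

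Among the replication genes, the helicase subunits, the ribonucleotide reductase genes and Uhrf1 had the smallest p-values. Mcm2, a subunit of the replicative helicase, had 5.39, 5.28 and 5.24 CPM in monocytes and 29.3, 29.2, 34.5 and 29.8 CPM in double-negative libraries. Its level was 23.03, 25.8, 27.1 and 20.0 CPM in single-positive and 16.8, 20.1, 24.2 and 19.4 CPM in double-positive libraries. No macrophage library came near the monocyte values, and edgeR's quasi-likelihood test gave log2 fold changes over monocytes of 2.53 ± 0.14 (SE; adjusted p = 6.79e-11) in double-negative and 1.92 ± 0.13 (adjusted p = 1.33e-09) in double-positive macrophages. Mcm3, of the same ring, was 2.03 ± 0.08, 1.85 ± 0.08 and 1.63 ± 0.08 higher than in monocytes on the log2 scale in the order double-negative, single-positive and double-positive. Uhrf1, which guides maintenance methylation to newly copied DNA, differed more, by 5.51 ± 0.27, 5.04 ± 0.26 and 4.43 ± 0.26. Pcna differed less, with 64.7, 51.4 and 52.5 CPM in monocytes and 84.2, 90.9, 103 and 111 CPM in double-negative libraries. The log2 fold change of Pcna was 0.79 ± 0.11 in double-negative, 0.64 ± 0.10 in single-positive and 0.50 ± 0.10 in double-positive macrophages, called in each case. Rfc4, a clamp loader subunit, missed the threshold in double-positive macrophages alone.

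The mitosis genes differed from monocytes by more. All 27 were called higher in double-negative macrophages (median log2 fold change 3.85), and 26 in each of single-positive (median 3.48) and double-positive macrophages (median 2.80). The exception was Aurkb. Of all tested genes 37.3%, 39.1% and 39.5% were called higher in double-negative, single-positive and double-positive macrophages. Their median log2 fold changes were 0.08, 0.11 and 0.10 in that order. Top2a, the topoisomerase that untangles sister chromatids, had 1.67, 1.24 and 1.37 CPM in monocytes and 53.4, 57.8, 62.0 and 77.9 CPM in double-negative libraries. It had 42.1, 58.1, 48.9 and 41.5 CPM in single-positive and 19.1, 22.8, 39.5 and 31.8 CPM in double-positive libraries. Groups of macrophages and monocytes did not overlap, at log2 fold changes of 5.45 ± 0.27, 5.05 ± 0.27 and 4.29 ± 0.26 (adjusted p = 2.16e-11, 3.83e-11 and 1.99e-10 by edgeR's quasi-likelihood test).

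Bub1, a kinase of the spindle checkpoint, was nearly absent from monocytes, with 8, 4 and 4 reads in the 3 libraries. It reached 6.41, 4.72, 5.86 and 6.81 CPM in double-negative, 3.96, 6.25, 5.86 and 4.92 CPM in single-positive, and 2.65, 2.33, 3.23 and 3.25 CPM in double-positive libraries. Cdk1, the kinase that drives entry into mitosis, had 25 reads over the 3 monocyte libraries, Tpx2, which activates Aurora A on the spindle, had 52, Cenpe, a kinetochore kinesin, had 65, and Kif4, a chromosome-bound kinesin, had 10. The fitted log2 fold changes of these 4 genes over monocytes ranged, in double-positive macrophages, from 4.79 ± 0.33 for Cenpe to 6.08 ± 0.45 for Kif4. Ttk, another spindle checkpoint kinase, had 3 reads or fewer in each monocyte library and was at least 82.1-, 77.2- and 39.7-fold higher in double-negative, single-positive and double-positive macrophages, counted against a floor of 3 reads per library. Mki67 was 6.51 ± 1.92 CPM (SD, n = 3) in monocytes and 82.7 ± 6.44 CPM (SD, n = 4) in double-negative macrophages.

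Between the macrophage subsets, double-positive macrophages had less of most cycle genes than double-negative macrophages. Of the 23 replication genes 15 were called lower, and of the 27 mitosis genes 25 were called lower, where 11.9% of all tested genes were called lower. The median log2 fold change was -0.53 for the replication genes and -1.06 for the mitosis genes, against -0.005 over all tested genes. Groups of libraries did not overlap for 16 replication and 26 mitosis genes, all lower in double-positive macrophages (13.8% of all tested genes). Of the called replication genes, Rrm2, Uhrf1 and Ccne2 changed by at least 2-fold, and the median of the mitosis genes was itself a 2.08-fold change.

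**Figure D3:**
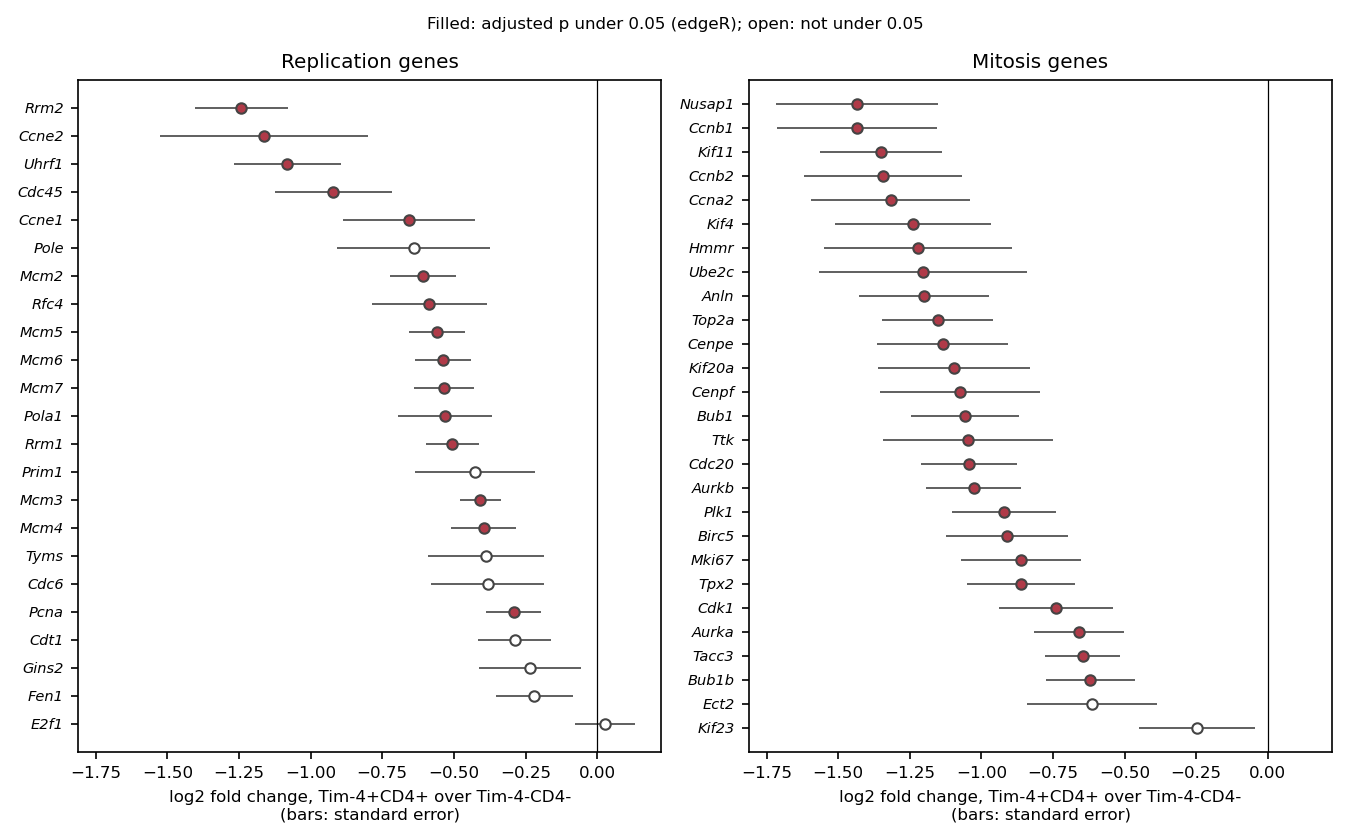
Log2 fold change (horizontal axis) of each replication gene (left) and mitosis gene (right) in double-positive over double-negative macrophages, with SE (n = 4 libraries each). Filled points are genes called by edgeR; replication genes range from -1.24 (Rrm2) to 0.03 (E2f1) and mitosis genes from -1.43 (Nusap1) to -0.25 (Kif23).

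The replication genes with the smallest p-values were enzymes of nucleotide supply, the helicase and Uhrf1. Rrm2, the regulated subunit of ribonucleotide reductase, had 12.6, 14.0, 17.3 and 20.0 CPM in double-negative and 9.69, 12.5, 12.6 and 9.50 CPM in single-positive libraries. It had 6.87, 5.84, 7.85 and 6.44 CPM in double-positive libraries. Rrm2 was the 1 member called in all 3 comparisons between subsets, and its log2 fold change in double-positive over double-negative macrophages was -1.24 ± 0.16 (adjusted p = 2.87e-05, edgeR's quasi-likelihood test). Rrm1, the large subunit of the same enzyme, changed by -0.51 ± 0.09. The 6 helicase genes Mcm2 to Mcm7 were all called lower, by -0.61 ± 0.12 for Mcm2, -0.56 ± 0.10 for Mcm5, -0.54 ± 0.10 for Mcm6, -0.54 ± 0.11 for Mcm7, -0.41 ± 0.07 for Mcm3 and -0.40 ± 0.11 for Mcm4. The call of Mcm4 was lost under 3 alternatives (adjusted p up to 0.0876). Mcm5 had 37.3, 39.7, 43.1 and 44.3 CPM in double-negative libraries and 25.7, 25.4, 31.4 and 29.1 CPM in double-positive libraries, without overlap.

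Uhrf1 fell by 1.08 ± 0.19 and Cdc45, which activates the helicase, by 0.92 ± 0.20 on the log2 scale. The cyclin E genes Ccne2 and Ccne1, which drive entry into S phase, changed by -1.16 ± 0.36 and -0.66 ± 0.23, and Pcna, Rfc4 and Pola1, of the fork and its primase complex, by -0.29 ± 0.10, -0.59 ± 0.20 and -0.53 ± 0.16. These 5 calls were less stable, since Ccne1 and Rfc4 each lost the call under 19 alternatives, Pcna under 13, and Ccne2 and Pola1 under 4 each, with adjusted p up to 0.164, 0.169, 0.153, 0.131 and 0.112 in that order. Not called were Tyms, which makes thymidylate (-0.39 ± 0.20), Gins2 of the GINS complex (-0.24 ± 0.18), the licensing factors Cdc6 (-0.38 ± 0.20) and Cdt1 (-0.29 ± 0.13), the flap nuclease gene Fen1 (-0.22 ± 0.13), the primase gene Prim1 (-0.43 ± 0.21), the polymerase gene Pole (-0.64 ± 0.27) and the transcription factor gene E2f1 (0.03 ± 0.10).

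Among motors of the spindle, Kif11, which separates the spindle poles, had 12.5, 14.4, 14.1 and 18.9 CPM in double-negative and 4.04, 5.09, 8.01 and 6.44 CPM in double-positive libraries, without overlap. Its log2 fold change was -1.35 ± 0.21 (adjusted p = 0.000201, edgeR's quasi-likelihood test), and those of Kif4, Kif20a and Cenpe were -1.24 ± 0.27, -1.10 ± 0.26 and -1.14 ± 0.23. Of the cyclins, Ccnb1 changed by -1.43 ± 0.28, Ccnb2 by -1.34 ± 0.28 and Ccna2 by -1.32 ± 0.28, whereas their partner Cdk1 changed by -0.74 ± 0.20. Nusap1, a spindle-associated protein gene, changed by -1.43 ± 0.28.

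Of the checkpoint and exit genes, Bub1 changed by -1.06 ± 0.19, Ttk by -1.05 ± 0.30, Bub1b by -0.62 ± 0.16 and Cdc20, which activates the anaphase-promoting complex, by -1.04 ± 0.17. Ube2c, the ubiquitin-conjugating enzyme of that complex, changed by -1.20 ± 0.36. Of the mitotic kinases, Aurkb changed by -1.03 ± 0.17, Plk1 by -0.92 ± 0.18 and Aurka by -0.66 ± 0.16. Mki67 had 84.7, 81.8, 74.5 and 89.9 CPM in double-negative, 67.9, 88.0, 60.4 and 74.8 CPM in single-positive and 28.7, 38.6, 65.7 and 49.2 CPM in double-positive libraries. The highest double-positive library lay below the lowest double-negative library, and the log2 fold change was -0.86 ± 0.21 (adjusted p = 0.00648, edgeR's quasi-likelihood test). Of the 25 mitosis calls 4 were lost under at least 1 alternative, those of Cdk1, Ttk, Ube2c and Hmmr, with adjusted p up to 0.0802, 0.111, 0.0842 and 0.0502. The 2 mitosis genes not called were Ect2, which starts the contractile ring (-0.61 ± 0.23), and Kif23, a motor of the central spindle (-0.25 ± 0.20).

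The means of single-positive macrophages lay between those of the other subsets for most members, and few members were called on either side. Which libraries came from the same sort was not given in the sources used here, so that all comparisons between subsets were made without pairing. Some libraries of different subsets correlated in their deviations from subset means (up to 0.24, closing section). Against double-negative macrophages 2 replication genes were called lower, Mcm5 (-0.36 ± 0.10, adjusted p = 0.0258) and Rrm2 (-0.53 ± 0.16, adjusted p = 0.0472, edgeR's quasi-likelihood test), where 5.53% of all tested genes were called lower. Of the mitosis genes 0 were called by edgeR, and DESeq2 called 3 lower, where it called 6.98% of all genes with an adjusted p lower. Both calls were lost under some alternatives, with adjusted p up to 0.104 for Mcm5 and 0.166 for Rrm2. The median log2 fold change was -0.18 for the replication genes and -0.40 for the mitosis genes, against -0.003 over all tested genes. The mitosis genes with the smallest p-values were Cdc20 (-0.53 ± 0.17, adjusted p = 0.0531) and Aurkb (-0.51 ± 0.16, adjusted p = 0.0608), each by edgeR's quasi-likelihood test.

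double-positive against single-positive macrophages gave 1 called replication gene and 3 called mitosis genes, all lower (1.34% of all tested genes were called lower). They were Rrm2 (-0.72 ± 0.16, adjusted p = 0.0169), Bub1 (-0.87 ± 0.19, adjusted p = 0.0131), Top2a (-0.75 ± 0.19, adjusted p = 0.0384) and Kif11 (-0.80 ± 0.21, adjusted p = 0.0477) in edgeR's quasi-likelihood test. The median log2 fold changes were -0.25 for the replication genes and -0.66 for the mitosis genes, against -0.002 over all tested genes. DESeq2 called 14 mitosis and 5 replication genes lower, where it called 2.31% of all genes with an adjusted p lower. Both of these comparisons share the single-positive libraries. The counts thus differed with the tool, and the calls of Rrm2 and of the 3 mitosis genes were lost under at least 1 alternative each, with adjusted p up to 0.0650 for Rrm2, 0.127 for Top2a, 0.0533 for Bub1 and 0.157 for Kif11.

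The ratio of the mitosis sum to the replication sum also differed between populations. The summed CPM of mitosis genes divided by that of replication genes was 0.218 to 0.340 in monocytes, 0.631 to 0.765 in double-negative, 0.553 to 0.725 in single-positive and 0.425 to 0.588 in double-positive libraries. double-positive and double-negative libraries did not overlap, single-positive libraries overlapped with both, and the monocyte libraries stood below all macrophage libraries. Mki67 and Top2a made up 33.1 to 35.6% of the mitosis sum in double-negative, 25.9 to 36.03% in double-positive and 12.8 to 14.99% in monocyte libraries. Without these 2 genes the ratio was 0.421 to 0.512 in double-negative and 0.296 to 0.376 in double-positive libraries, again without overlap. No test was made of these ratios. The mean sums in monocytes were 216 CPM for replication and 57.3 CPM for mitosis genes. If cells outside the cycle hold such levels, the ratio changes with the share of cycling cells alone, which was not tested.

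A few members did not follow their group. Cdt1, the licensing factor, had 25.3, 27.3 and 20.3 CPM in monocytes and 21.1, 25.3, 22.1 and 19.7 CPM in double-negative libraries. It had 17.04, 19.2, 22.7 and 17.2 CPM in single-positive and 17.9, 16.5, 21.5 and 16.5 CPM in double-positive libraries. The groups overlapped, and the log2 fold change over monocytes was -0.14 ± 0.14 (adjusted p = 0.383), -0.35 ± 0.13 (adjusted p = 0.0279) and -0.43 ± 0.13 (adjusted p = 0.00956) in the order double-negative, single-positive and double-positive, by edgeR's quasi-likelihood test. Under the alternatives the adjusted p of Cdt1 rose to 0.195 in single-positive macrophages, where 9 alternatives lost the call, and to 0.0897 in double-positive macrophages, where leaving out monocyte replicate 1 or 2 lost it.

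E2f1, the transcription factor of S phase entry, had 15.2, 16.2 and 15.7 CPM in monocytes. It had 31.4, 37.5, 36.1 and 34.5 CPM in double-negative, 28.4, 33.5, 40.8 and 31.7 CPM in single-positive and 37.8, 31.9, 38.7 and 33.8 CPM in double-positive libraries. It was thus higher in every macrophage library than in monocytes, and the macrophage subsets overlapped. Kif23 had 8.96, 14.99 and 8.60 CPM in monocytes, and its means in macrophages were 32.04 ± 5.89 CPM in double-negative, 25.6 ± 5.64 CPM in single-positive and 27.01 ± 5.75 CPM in double-positive libraries (SD, n = 4).

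Aurkb, the kinase of the chromosomal passenger complex, had 9.27, 11.7 and 7.43 CPM in monocytes and 12.7, 18.7, 15.7 and 18.8 CPM in double-negative libraries. It had 10.4, 12.4, 13.7 and 9.86 CPM in single-positive and 7.59, 6.70, 9.07 and 9.06 CPM in double-positive libraries, the latter within the monocyte range or below it. It was called higher than in monocytes in double-negative macrophages (0.80 ± 0.18, adjusted p = 0.000969), with 0.29 ± 0.18 (adjusted p = 0.160) and -0.23 ± 0.18 (adjusted p = 0.259) in the CD4+ subsets, by edgeR's quasi-likelihood test. Besides Aurkb, the mitosis genes with means above 4 CPM in monocytes were Kif23, Bub1b, Mki67, Tacc3 and Anln.

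**Figure D4:**
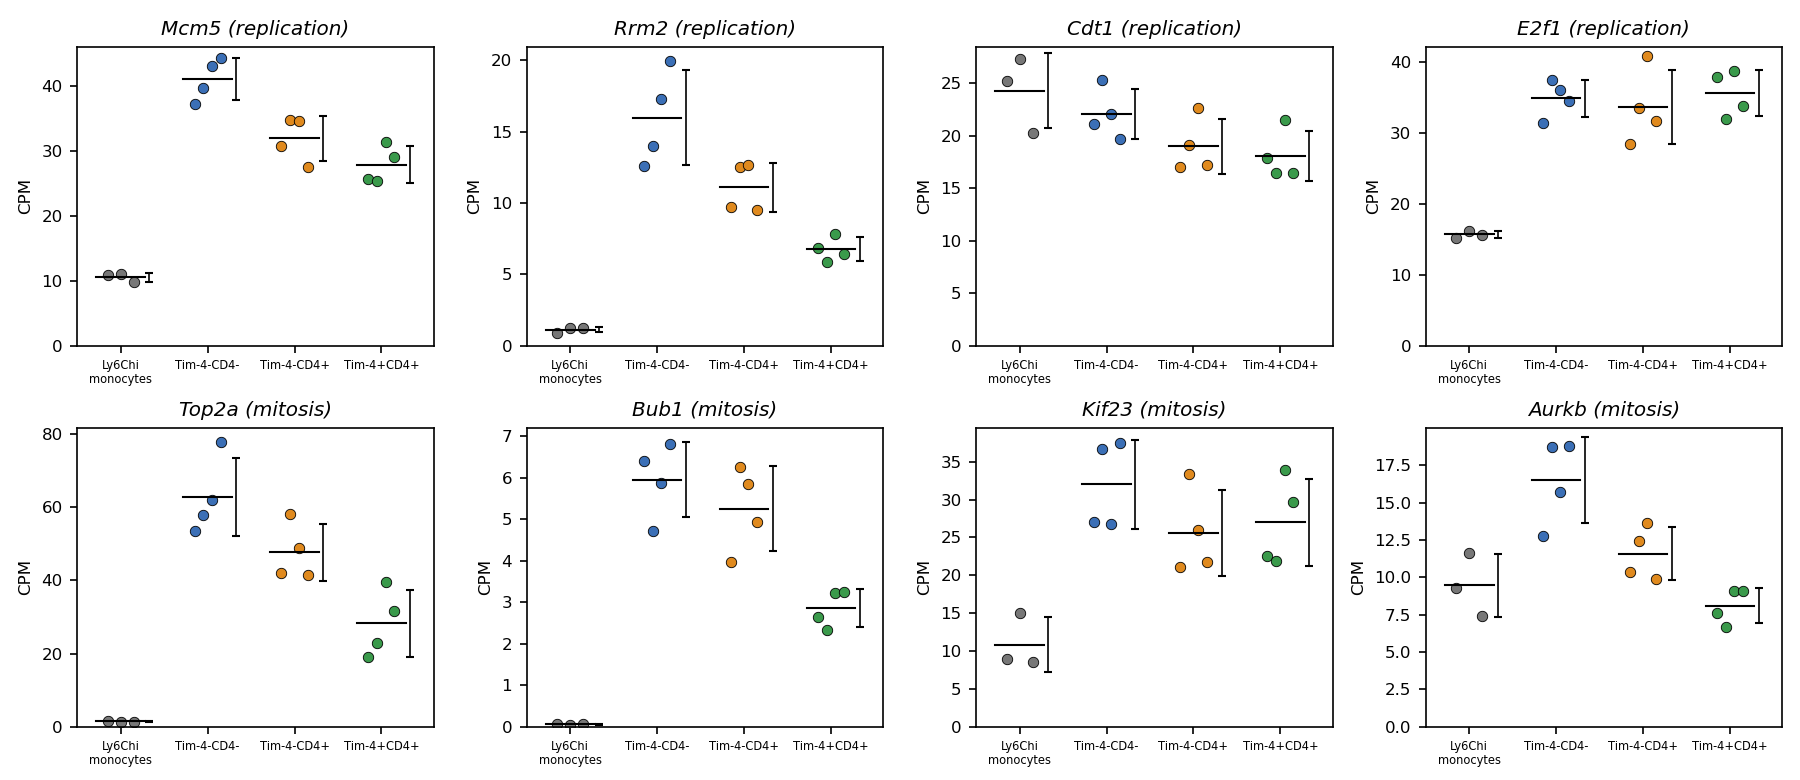
CPM (vertical axes, from 0) of 4 replication genes (top) and 4 mitosis genes (bottom) in each library, by population. Points are libraries, lines are means and bars are SD. Mcm5, Rrm2, Top2a and Bub1 step down from double-negative to double-positive macrophages, and E2f1 and Kif23 overlap across macrophage subsets. Cdt1 has its highest mean in monocytes, with overlapping libraries, and Aurkb in double-positive libraries lies between 6.70 and 9.07 CPM.

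Members moved together among libraries of a subset, and more so for mitosis. Over the 12 macrophage libraries, the median correlation of the deviations from subset means was 0.63 over the 351 pairs of mitosis genes, 0.48 over the 253 pairs of replication genes and 0.46 over the 621 pairs across the groups, against -0.002 over all tested genes. The genes of a pair share libraries and depth, and these values are descriptions. Single libraries stood out in each subset. Of the 27 mitosis genes 24 were highest in replicate 4 among double-negative libraries, 26 in replicate 2 among single-positive libraries and 20 in replicate 3 among double-positive libraries. Over all tested genes, deviations of double-negative replicate 4 and single-positive replicate 2 correlated at 0.16. Those of each with double-positive replicate 3 correlated at -0.10 and -0.070. The SD of log2 CPM had medians of 0.24, 0.26 and 0.32 for the mitosis genes in the order double-negative, single-positive and double-positive, and of 0.16, 0.18 and 0.18 for the replication genes. Over all tested genes the medians were 0.18, 0.19 and 0.27, and thus also highest in double-positive macrophages.

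Depth moved with these libraries in part. double-negative replicate 4 (39388763 counts) and single-positive replicate 2 (39568129 counts) were the shallowest of their subsets, and double-positive replicates 1 and 2 (104240859 and 116123886 counts) were the deepest of theirs and held the lowest mitosis sums. The order of other libraries by sum was not that of their depth. single-positive replicate 1, the next shallowest of its subset (54107962 counts), held the lowest mitosis sum (284 CPM) and was lowest for 18 of the 27 genes, whereas replicate 4, the deepest (151510641 counts), held 316 CPM. double-positive replicate 3 (63249039 counts) was deeper than replicate 4 (59404864 counts) and had the higher sum. double-negative replicate 2, the deepest of its subset (63924096 counts), held 412 CPM, close to the 410 CPM of double-negative replicate 3. With the log2 total count as a covariate, a fit chosen after the data were seen, 9 replication and 21 mitosis genes were called lower in double-positive than in double-negative macrophages. Without double-negative replicate 4 the calls were 9 and 22. In the main fit they were 15 and 25, where 11.9% of all tested genes were called lower. That share is not given for the alternative fits. The lower counts therefore cannot be set against a change over all tested genes. The part of depth in the result was not tested otherwise.

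Markers of other cells also moved between double-negative and double-positive macrophages. The summed CPM of 5 dendritic cell markers was 16.4 to 65.0 in double-negative and 7.43 to 11.4 in double-positive libraries, of 6 myeloid progenitor markers 7.84 to 17.8 and 2.99 to 4.43, and of 4 markers of NK and innate lymphoid cells 7.87 to 9.84 and 2.79 to 4.36. These 3 sums moved with the cycle genes, as the monocyte markers did. The dendritic cell sum was 65.0 CPM in double-negative replicate 3 alone, and without replicate 3 the replication and mitosis genes called lower were 11 and 24. The share of all tested genes called lower in that fit is not given. The other 3 double-negative libraries, at 16.4 to 22.4 CPM, also lay above every double-positive library. Means in double-negative and double-positive macrophages were 8.65 and 0.572 CPM for Flt3, 9.61 and 2.20 CPM for Itgae and 7.18 and 1.85 CPM for Ccr7. Those of Zbtb46 (2.24 and 1.70 CPM) and Xcr1 (2.83 and 2.62 CPM) differed less. Most of the progenitor sum was Kit in double-negative macrophages (mean 7.74 CPM, and 1.45 CPM in double-positive macrophages). Most of the NK and innate lymphoid sum was Il7r (7.31 and 2.63 CPM). Klrb1c was also lower, at 0.653 to 1.28 CPM in double-negative and 0.267 to 0.487 CPM in double-positive libraries. Ncr1 had lower means too (0.147 and 0.0397 CPM), with overlapping libraries, whereas Gata3 had 0.564 and 0.642 CPM. Of these 4 markers 2 were called lower and 0 higher in double-positive macrophages (11.9% and 11.3% of all tested genes). Mesenchymal markers (3 genes, 25.5 to 40.2 and 41.2 to 58.7), endothelial markers (3 genes, 107 to 122 and 286 to 346, nearly all Pecam1) and markers of neutrophils or eosinophils (5 genes, 5.31 to 9.44 and 11.2 to 17.04, nearly all Siglecf) moved the other way. Sums of T cell, B cell, plasma cell, epithelial, red cell and glial markers overlapped between these subsets. The 4 plasma cell markers reached 1050 to 2427 CPM in macrophage libraries, nearly all Igkc and Jchain, and 2.82 to 3.89 CPM in monocytes. Of the listed progenitor markers besides Kit, Ctsg was at 0 in all macrophage libraries, and Mpo and Elane were at 0 in all double-positive libraries. Cd34 had means of 2.99 and 2.14 CPM in double-negative and double-positive macrophages, and Prtn3 had 0.636 and 0.236 CPM. The sort removed cells with surface TCRβ, B220, Siglec F, Ly6G or Ly6C and required CD64. In this sort, cells were not first selected on CD11c. The part of cells of other types in the levels of the cycle genes was not tested.

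Further genes of the same processes were counted from longer lists. Of 54 further mitosis genes 39 were called lower in double-positive than in double-negative macrophages (median log2 fold change -0.87). Of 50 further replication genes 15 were called lower and 1, Rfc2, higher (median -0.35). Among all tested genes 11.9% were called lower and 11.3% higher. Espl1, the separase that opens the cohesin ring, changed by -1.20 ± 0.12 and Cks2, a Cdk1 partner, by -1.52 ± 0.21. Against monocytes, 47 of the 54 mitosis genes were called higher in double-negative macrophages (37.3% of all tested genes), with Dlgap5 at 6.30 ± 0.27. The 2 called lower were Racgap1 (-1.24 ± 0.18) and Espl1 (-0.30 ± 0.12). Racgap1, which acts at the central spindle, had means of 62.5 CPM in monocytes and 26.5 CPM in double-negative macrophages, and Espl1 of 24.9 and 20.2 CPM. Of the replication genes 35 of the 50 were called higher and 4 lower (28.1% of all tested genes were called lower), with Lig1, the ligase of Okazaki fragments, at 3.55 ± 0.18. Dna2, a nuclease of Okazaki fragment processing, went against its list, at 201 ± 2.18 CPM (SD, n = 3) in monocytes, 30.9 ± 5.4998 in double-negative and 10.9 ± 2.34 in double-positive macrophages (SD, n = 4).

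Of 14 tested G1 cyclins, kinases and entry factors, 8 were called lower and 1, E2f3, higher in double-positive than in double-negative macrophages. Of all tested genes 11.9% were called lower and 11.3% higher. Cdk6, a kinase of G1, changed by -1.29 ± 0.16, Ccnd1, its cyclin D1 partner, by -1.01 ± 0.18 and Myc by -0.66 ± 0.10. Ccnd2, cyclin D2, had means of 222 and 237 CPM in double-negative and double-positive macrophages and 1.91 CPM in monocytes, whereas Ccnd3, cyclin D3, had 38.9, 20.3 and 428 CPM in that order. E2f2 had 223 CPM in monocytes and 21.004 CPM in double-negative macrophages. Of 10 transcription factors of mitosis genes 4 were called lower in double-positive than in double-negative macrophages (11.9% of all tested genes). Among them were Foxm1 at -1.19 ± 0.25 and Mybl2 at -1.02 ± 0.30.

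Of 21 cell cycle inhibitors 7 were called lower and 1, Cdkn2a, higher in double-positive than in double-negative macrophages (11.9% and 11.3% of all tested genes). The largest of the lower calls were in E2f8 (-1.39 ± 0.18) and E2f7 (-1.31 ± 0.21), repressors that are themselves expressed in cycling cells. Cdkn1a, the inhibitor p21, had 303 ± 25.97 CPM in double-negative and 314 ± 36.8 CPM in double-positive macrophages (SD, n = 4), and 37.8 ± 5.79 CPM in monocytes (SD, n = 3). Btg2, an antiproliferative gene, had 3346 CPM in double-negative and 2614 CPM in double-positive macrophages and 171 CPM in monocytes.

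Some members share bases with a gene on the opposite strand, and the strand setting of the count was not given in the sources used here. The share of exon bases covered was 78.8% for Fen1 (by Gm10143), 67.3% for Gins2 (by Gse1), 29.3% for Kif20a (by Cdc23), 22.8% for Ube2c (by Tnnc2) and 17.4% for Ccne2 (by Ints8). If strand was not used, reads of these pairs cannot be told apart, and the values of Fen1 and Gins2 are uncertain.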

How the data were processed

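RNA of sorted cells was sequenced as paired reads of 65 bases from stranded mRNA libraries. The authors trimmed reads (Trimmomatic 0.36), aligned them to GRCm38.p4 (STAR 2.4.2), counted unique reads per gene (HTSeq 0.6.1p1, GENCODE vM11) and deposited these counts. A second block of the same counts divided by 1 size factor per library was not used. The lowest total of a deposited gene over the 15 libraries was 16 reads. Symbols came from GENCODE M21 for 19421 of the 19456 genes.

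Counts were filtered with filterByExpr, scaled with TMM and fitted in edgeR 4.0.16 (R 4.3.3) in 1 quasi-likelihood fit over 15 libraries and 4 populations, with no replicate block and with Benjamini-Hochberg adjustment within each of 6 comparisons. Fits were tested on simulated data. Log2 CPM used a prior count of 2. RPKM was computed from exon length. DESeq2 1.42.0 and other alternatives are given in the closing section. Figures used Python 3.11.15 and matplotlib 3.10.9. Floors of 3 reads cover counting error only, since reads carry no molecular identifiers.

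The members and lists were chosen with earlier results of these data known, and the promoter motifs after them. Named genes are the 6 most abundant members of each group, those called between subsets or with the 6 smallest p-values per comparison, those moving against their group, up to 6 genes of each further list, and Mki67, Top2a, Pcna and Mcm2. Replicate numbers are those of the titles. Ccna1 was not in the table. The study describes the replicates as independent sorts of pooled mice, so p-values measure the spread between pools and not between single mice.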

Additional observations from a re-analysis of the deposited data

Results flagged for a closer look

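In groups of 4 libraries, 7 of 159 sets of values held a library far from the other 3 (4.40%), where chance gives such a gap in about 5% of sets. Mcm2 was at 34.5 CPM in double-negative replicate 3, against 29.2 to 29.8 CPM in the others, and Ccne2 at 2.54 CPM in double-negative replicate 4, against 1.22 to 1.41 CPM. Nusap1 was at 8.85 CPM in single-positive replicate 2 (5.44 to 5.83 CPM in the others) and at 5.23 CPM in double-positive replicate 3 (2.73 to 2.99 CPM). In double-positive macrophages Mcm4 was at 30.7 CPM in replicate 1 (37.8 to 39.1 CPM in the others), Fen1 at 23.5 CPM in replicate 1 (18.0 to 18.8 CPM) and Gins2 at 4.76 CPM in replicate 2 (6.42 to 6.70 CPM). The libraries that stood high for Ccne2 and Nusap1 were those in which most mitosis genes were highest.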

How the results depend on the processing

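Alternatives were DESeq2, RLE scaling, no filter beyond 1 count, a filter at a mean of 1 CPM, a fit of only the populations compared, a replicate block, a 2-fold minimum, depth as a covariate (added after the data were seen) and each library left out, and no result reversed under these. The calls against monocytes stayed within 1.5 times the count under all of them. For double-positive against double-negative macrophages, the 15 replication genes called became 9 with depth as a covariate and 3 with the 2-fold minimum. For single-positive against double-negative macrophages, the 2 replication genes became 1 with RLE scaling, 1 with no filter, 6 with only the populations compared, 1 with the block by description numbers, 0 with depth as a covariate and 0 with the 2-fold minimum, and the 0 mitosis genes became 3 with DESeq2, 1 with the mean filter and 5 with only the populations compared. For double-positive against single-positive macrophages, the 1 replication gene became 5 with DESeq2 and 0 with the 2-fold minimum, and the 3 mitosis genes became 14 with DESeq2 and 0 with the 2-fold minimum. The cause was not tested. Shares of all tested genes called are not given for these alternatives, except for DESeq2 between single-positive macrophages and the other subsets. Changes in the counts therefore cannot be set against changes over all tested genes.

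Leaving out 1 library at a time gave 22 to 22, 22 to 23 and 21 to 23 replication genes and 27 to 27, 26 to 27 and 25 to 26 mitosis genes against monocytes, in the order double-negative, single-positive and double-positive. For double-positive against double-negative macrophages it gave 9 to 14 replication genes (9 without double-negative replicate 4) and 22 to 26 mitosis genes. For single-positive against double-negative it gave 0 to 4 and 0 to 3. The replication count was 0 without double-negative replicate 3 or 4 or single-positive replicate 1 or 4, 1 without monocyte replicate 2 or 3, single-positive replicate 2 or double-positive replicate 2 or 4, and 4 without single-positive replicate 3. The mitosis count was 3 without single-positive replicate 2, 2 without double-positive replicate 1, and 1 without monocyte replicate 2, double-negative replicate 1 or single-positive replicate 3. For double-positive against single-positive it gave 0 to 3 and 0 to 8. The replication count was 0 without single-positive replicate 2 or 3 or double-positive replicate 2 or 4, 2 without monocyte replicate 3 or double-negative replicate 4, and 3 without double-positive replicate 3. The mitosis count was 8 without double-positive replicate 3, 5 without monocyte replicate 2, 0 without single-positive replicate 2, and 1 without single-positive replicate 3 or double-positive replicate 1, 2 or 4.

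Titles and descriptions number the single-positive libraries differently. Deviations of same-numbered macrophage libraries correlated at -0.12 to 0.13 by title and -0.089 to 0.16 by description. Those of differently numbered libraries reached 0.24 (double-negative replicate 2 and single-positive replicate 3 by title), so the numbers were not taken to pair the libraries. By title, double-negative, single-positive and double-positive replicates 1, 4 and 1, replicates 2, 3 and 3, replicates 3, 1 and 2, and replicates 4, 2 and 4 correlated positively within each set (0.058 to 0.24). Every other pair across subsets stood at 0.094 or below. No label names these sets, and no fit paired them. The main tests between subsets took all libraries as independent, despite the positive correlations within these sets, and independence was not tested. With the block by title numbers, 12 replication and 25 mitosis genes were called for double-positive against double-negative macrophages, and 1 and 3 for double-positive against single-positive.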
